A study of Homo sapiens with 3 samples.

Results

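The 3 tRNA probes, Glu1h and Glu2h for glutamate and Gln1h for glutamine, were followed on two-colour arrays in MCF-10A cells, a non-tumorigenic human breast epithelial line, after knockdown of the translation initiation factor subunit eIF3e. They were taken by name and make up 3 of the 41 human tRNA probes on the array, with 16 spots each. Each array ratio set RNA from cells treated with siRNA for eIF3e, labelled with Cy3, against RNA from cells treated with si-control, labelled with Atto635. Both siRNAs were given at 20 nM for 72 h, and all cultures were of the same line. The 3 ratios came from 2 knockdown and 3 control cultures, and per the titles ratios 1 and 2 share 1 knockdown RNA. No array had the dyes swapped, and a separate dye control array was deposited, without a statement of its RNAs in the labels. The cells of each experiment were grown independently, per the labels, and the p-values below measure only spread between these 3 ratios. For the limma p-values that spread is pooled, wholly or in part, over the human probes, which share the arrays.

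Transfer RNAs carry amino acids to the ribosome and read codons through their anticodon. Glutamate and glutamine differ by an amide group, and their tRNAs read neighbouring codon pairs, GAA and GAG for glutamate and CAA and CAG for glutamine. In human cells the cytosolic tRNAs are charged by EPRS1, which joins the glutamate and proline synthetases in a single protein, and by QARS1. In human mitochondria glutamine is made on its tRNA from glutamate. The RefSeq annotation of GRCh38.p14 lists 15 nuclear genes for glutamate tRNA, 8 with the anticodon CTC and 7 with TTC, and 19 for glutamine tRNA, 13 with CTG and 6 with TTG. It lists 1 mitochondrial gene for each amino acid. A probe name states its amino acid with a running number but no anticodon, so which of these genes each probe reads is not stated here.

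The question was whether depletion of eIF3e, a subunit of the factor that brings mRNA to the small ribosomal subunit, changes the tRNA pool. Each 2 µg of total RNA had received 4 synthetic tRNAs as standards, 4 pmol each, per the labels, and ratios are given relative to their median. The protocol names both an abundance and a charging procedure and places periodate under abundance. Periodate destroys the free end of uncharged tRNA, as background, so the ratios are read here as tRNA that could be ligated to the labelled oligonucleotide. The eIF3e level itself was not measured on these arrays.

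All 3 probes were bright in both channels. None of their spots was flagged on any array, but the flags of ratio 2 are those of ratio 1 repeated. The share of saturated pixels was 0% in every channel with its own record, which leaves out Atto635 of ratio 2. For Glu1h the Cy3 intensity of the knockdown RNA ran from 6218 to 11651 with a median of 8603.5 on array 1 (16 spots), and from 4159 to 9378 with a median of 6937.5 on array 3. Its Atto635 intensity, from the control RNA, ran from 4291 to 8152 in ratio 1 (median 6171.5), from 3176 to 6682 in ratio 2 (median 5209.5) and from 1681 to 3859 in ratio 3 (median 2769.5). The control value of ratio 3 was thus the lowest of the 3, as it was for the human probes in general, whose medians in that channel were 1605, 1319 and 734.

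Glu2h had Cy3 medians of 4337 on array 1 and 2929.5 on array 3, with spots from 2779 to 4961 and from 2265 to 3659. Its Atto635 medians were 2505.5, 1749.5 and 1033, with spots from 1589 to 2721, from 631 to 2363 and from 734 to 1321. In both channels array 3 was again the dimmest. Gln1h had Cy3 medians of 6370.5 and 4083.5, with spots from 4716 to 6897 and from 3026 to 5048. Its Atto635 medians were 3647.5, 2778 and 1361.5, with spots from 2891 to 4038, from 1543 to 3090 and from 1120 to 1734. The dimmest of these medians, 1033 for Glu2h in ratio 3, was 36.9 times the local background. No local background of its own was read for Atto635 of ratio 2. On the dye control the medians in Cy3 and Atto635 were 8560.5 and 4838 for Glu1h, 3856 and 2012.5 for Glu2h, and 7014 and 3056.5 for Gln1h. Intensities of different probes are not comparable as amounts of tRNA.

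**Figure D1:**
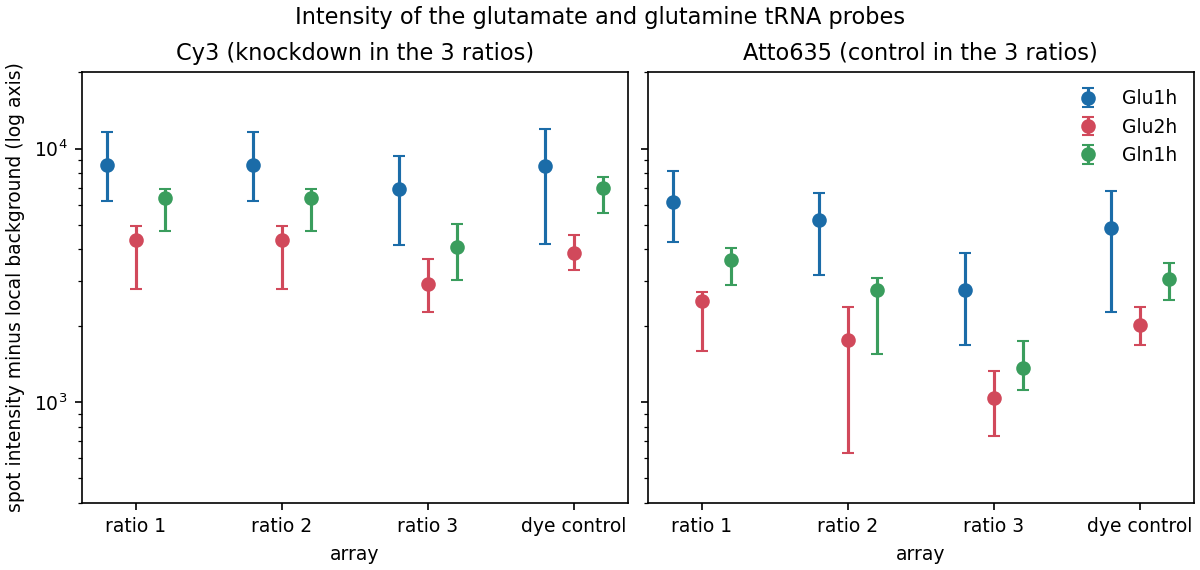
Background-subtracted spot intensity (log axis) of Glu1h, Glu2h and Gln1h on each array in Cy3 and in Atto635. Points are medians over 16 spots and bars run from the lowest to the highest spot; ratios 1 and 2 share their Cy3 values, and the widest bar is that of Glu2h in Atto635 of ratio 2, from 631 to 2363.

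The scanner tables of ratios 1 and 2 held the same values in 56 of 57 columns. The remaining column was the background-subtracted Atto635 intensity, which differed at all 16 spots of each of the 3 probes. In ratio 1 the Cy3 and Atto635 intensities of the spots moved together, with r = 0.982 for Glu1h, 0.989 for Glu2h and 0.887 for Gln1h over 16 spots that share an array. In ratio 2 these correlations were 0.262, 0.103 and 0.357. The log2 ratios of single spots had SDs of 0.054, 0.040 and 0.072 for Glu1h, Glu2h and Gln1h in ratio 1 and of 0.056, 0.071 and 0.076 in ratio 3, against 0.37, 0.56 and 0.23 in ratio 2. Ratio 2 is therefore the least precise of the 3 for these probes, and its Cy3 part is no separate measurement from that of ratio 1. Whether those Cy3 values belong to the scan that gave its Atto635 values was not tested. Without ratio 2, the log2 ratios scaled on the standards were -0.064 for Glu1h (limma adjusted p = 0.674), 0.22 for Glu2h (adjusted p = 0.320) and 0.21 for Gln1h (adjusted p = 0.320).

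The scale itself moved between standards. Before any dye subtraction Yeast Phe-3 stood at 0.31, 0.31 and 0.40 on the log2 scale and E.c. Ala-5 at -0.17, -0.066 and -0.038. The middle pair, E.c. Tyr-2 and E.c. Lys-2, lay within 0.026 of 0 in all 3 ratios. As the median of the 4 standards sets the zero, the middle pair lies at equal distances around it by construction. On the dye control E.c. Lys-2 was at -0.35 and Yeast Phe-3 at 0.28. With the dye control subtracted E.c. Lys-2 stood at 0.37, 0.32 and 0.27 and E.c. Ala-5 at -0.20, -0.11 and -0.13. Yeast Phe-3, then at 0.018, -0.0016 and 0.045, and E.c. Tyr-2, at -0.018, 0.0016 and -0.045, were the middle pair after subtraction. Standards thus differed from each other by about as much as the ratios of the glutamate and glutamine probes. Spelling of the standards follows the scanner tables; the labels call the alanine standard a yeast tRNA.

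Glu2h had the highest estimated log2 ratio of the 3 probes, Gln1h came close to it, and Glu1h lay near 0. None of the 3 was called at an adjusted p under 0.05 by limma over the 41 probes, where 9.76% of the probes were called higher and 2.44% lower. At an unadjusted p under 0.05 the count was 2 of these 3, Glu2h and Gln1h, and 15 of the 41. Both were above 0 in all 3 ratios, as were 70.7% of the human probes; none of the 3 was below 0 in all ratios, as were 4.88% of the 41. The median of all 41 probes was at 0.050, 0.26 and 0.28 in ratios 1, 2 and 3, and the median of the 3 glutamate and glutamine probes at 0.052, 0.36 and 0.32.

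For Glu1h the log2 ratios of knockdown over control were -0.22, -0.020 and 0.092. They lay on both sides of 0, with ratio 1 lowest and ratio 3 highest. The limma estimate was -0.029 (SE 0.13, 95% interval -0.29 to 0.23, limma adjusted p = 0.846), a fold of 0.980, with an SD of 0.16 over the 3 ratios. It ranked at place 39 of 41 counted from the highest. With the dye control subtracted the ratios were -0.12, 0.065 and 0.13 and the estimate was 0.040 (SE 0.12, adjusted p = 0.949), at place 22. The dye control alone held Glu1h at -0.11.

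Glu2h, the other glutamate probe, was at 0.11, 0.48 and 0.32. All 3 values were above 0, with ratio 2 highest and ratio 1 lowest. The estimate was 0.31 (SE 0.13, 95% interval 0.042 to 0.57, limma adjusted p = 0.0881), a fold of 1.24, at place 10 of 41. With the dye control subtracted it was at 0.080, 0.43 and 0.22, again above 0 in 3 of 3 ratios, where 19.5% of all human probes were; 17.1% were below 0 in all 3, and none of these probes was among them. The estimate was then 0.24 (SE 0.12, 95% interval -0.0060 to 0.49, adjusted p = 0.285), at place 7, and the dye control alone held Glu2h at 0.023. After that subtraction limma called 4.88% of the 41 probes higher and 0% lower, with 0 of these 3 and 7 of the 41 at an unadjusted p under 0.05.

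Glu2h was the probe of the 3 closest to a call, and its call depended on the scale and on how ratios 1 and 2 were weighted. No dye-subtracted setting called Glu2h. It was called higher with E.c. Lys-2 left out of the scale (0.31, limma adjusted p = 0.0428), without Yeast Phe-3 (0.32, adjusted p = 0.0487), with ratios 1 and 2 averaged (0.31, adjusted p = 0.00157) and with the 3 ratios taken as independent (0.30, adjusted p = 0.00617). In that order these settings called 11, 10, 28 and 20 of the 41 probes higher. Over all alternatives the adjusted p of Glu2h ran from 2.53e-06 to 0.989. Without ratio 1 it was at 0.40 (adjusted p = 2.53e-06), the lowest of that range, where 31 of the 41 probes were called higher. That run rests on 2 ratios and still holds the Cy3 values of ratio 1, which ratio 2 repeats. The estimate of Glu2h was above 0 in each alternative run, from 0.049 upward.

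Gln1h, the glutamine probe, was at 0.052, 0.36 and 0.36. Ratios 2 and 3 were level and ratio 1 lay close to 0. The estimate was 0.27 (SE 0.13, 95% interval 0.0084 to 0.54, limma adjusted p = 0.119), a fold of 1.21, at place 13 of 41. The dye control alone held Gln1h at 0.20, and with it subtracted the ratios were -0.16, 0.13 and 0.080, on both sides of 0. The estimate became 0.026 (SE 0.12, 95% interval -0.22 to 0.27, adjusted p = 0.949), at place 25. It was called higher with ratios 1 and 2 averaged (0.28, adjusted p = 0.00317), with the ratios taken as independent (0.26, adjusted p = 0.0190) and without ratio 1 (0.36, adjusted p = 1.05e-05), each without dye subtraction. Those settings called 28, 20 and 31 of the 41 probes higher, so such a call was not particular to Gln1h. The run without ratio 1 kept the Cy3 values that ratio 1 shares with ratio 2.

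**Figure D2:**
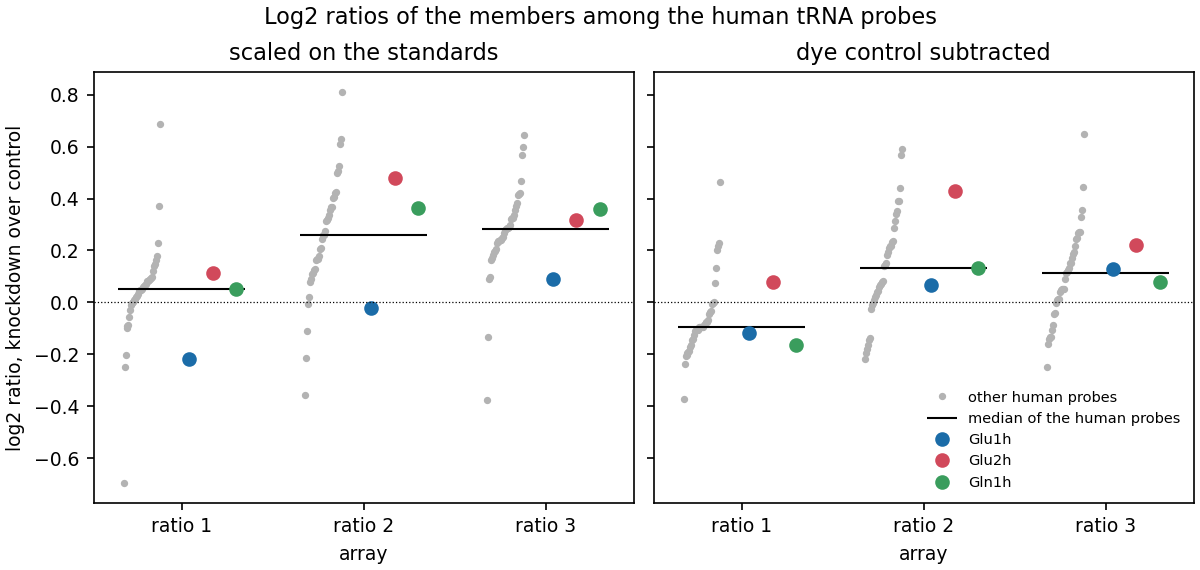
Log2 ratio of knockdown over control in each ratio, scaled on the standards (left) and with the dye control subtracted (right), for Glu1h, Glu2h, Gln1h and the other 38 human probes (grey), with the median of the 41 as a line. Glu2h lay above that line in each ratio in both panels; Glu1h lay well below it on the left (-0.22, -0.020 and 0.092 against 0.050, 0.26 and 0.28) and next to it on the right.

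When the median human probe, not the standards, set the zero of each array, Glu1h stood at -0.27, -0.28 and -0.19. It was called lower, at -0.24 (SE 0.069, limma adjusted p = 0.0103), a fold of 0.847. That made 1 of the 3 called lower and 0 higher, against 9.76% of the 41 probes in each direction. Glu1h was below 0 in all 3 ratios, as were 26.8% of the probes, and Glu2h and Gln1h above 0 in all 3, as were 29.3%. Neither Glu2h (0.095, adjusted p = 0.384) nor Gln1h (0.062, adjusted p = 0.605) was called.

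With the dye control subtracted before this centring, the value of Glu1h was -0.019 (SE 0.061, limma adjusted p = 0.863), and it was no longer called. Glu2h had values of 0.17, 0.30 and 0.11, with an estimate of 0.18 (SE 0.069, adjusted p = 0.0955), and Gln1h an estimate of -0.034 (adjusted p = 0.761). So 0 of the 3 were called, against 7.32% of the 41 called higher and 2.44% lower, and Glu2h alone of the 3 was above 0 in all ratios, as were 31.7% of the 41. None of the 3 was below 0 in all ratios, as were 24.4%. Gln1h was itself the median probe in ratio 2, so its value there was 0 by construction, with -0.068 and -0.034 in ratios 1 and 3.

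The gap between the glutamate probes, the log2 ratio of Glu2h minus that of Glu1h, does not depend on the scaling of an array. It was 0.33, 0.50 and 0.23 in ratios 1, 2 and 3, on average 0.35 ± 0.14 (SD, n = 3), so Glu2h had the higher ratio in 3 of 3. An exact two-sided sign-flip test gave p = 0.25, the smallest that 3 ratios allow. With ratios 1 and 2 averaged into 1 knockdown RNA the mean was 0.32 (n = 2, exact p = 0.50, again the smallest possible). The sign-flip test can therefore not place this gap past a threshold of 0.05 at this number of ratios.

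The dye control array itself showed a gap of 0.13 in the same direction. With it subtracted the gap was 0.20, 0.37 and 0.093. These averaged 0.22 ± 0.14 (SD, n = 3, exact p = 0.25), or a fold of 1.16 between the 2 probes' ratios. It stayed above 0 in 3 of 3 ratios. The highest value came from ratio 2, and without that ratio the mean was 0.28 before and 0.15 after subtraction. Among the 34 pairs of probes that share an amino acid, 5 had a larger absolute gap than the glutamate pair before dye subtraction and 5 after it, not all of them the same pairs. The median absolute gap was 0.12 before and 0.090 after. The same sign in all 3 ratios was seen for 24 of the 34 pairs before and 19 after, so a sign shared by the 3 ratios was common among such pairs.

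Glu1h and Glu2h were printed in the same columns of each of 8 blocks, in different rows, which gives 16 pairs of spots that share a block and column on each array. In ratio 1 the gap was above 0 at 16 of 16 pairs, from 0.28 to 0.39 with a median of 0.33. In ratio 3 it was above 0 at 16 of 16, from 0.18 to 0.32 with a median of 0.25, and on the dye control at 16 of 16, from 0.030 to 0.17 with a median of 0.13. These 3 ranges show that the dye control pairs lay below all pairs of ratios 1 and 3. With the pair at the same position of the dye control subtracted, ratios 1 and 3 kept a gap above 0 at 16 of 16 positions each, with medians of 0.21 and 0.13. In ratio 2 the gap was above 0 at 14 of 16 pairs and at 13 of 16 after subtraction, and it ran from -0.32 to 1.89 before subtraction. Spots of 1 array share its RNA, so these counts describe the array and do not add replicates.

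**Figure D3:**
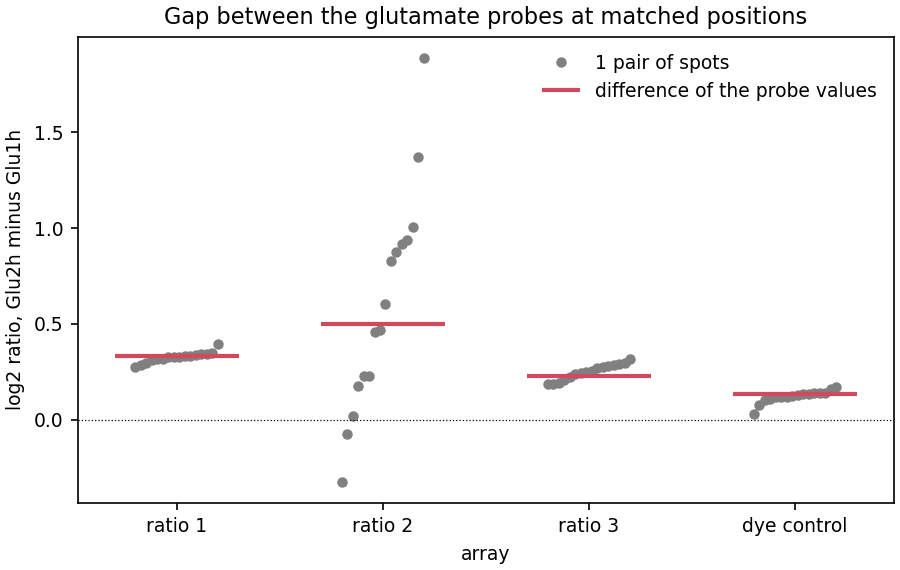
Log2 ratio of Glu2h minus that of Glu1h for 16 pairs of spots in the same block and column (grey) and for the probe values (red lines) on each array. Pairs of ratios 1 and 3 lay between 0.18 and 0.39, those of the dye control between 0.030 and 0.17, and those of ratio 2 between -0.32 and 1.89.

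As deposited, ratios 1 and 2 hold the same Cy3 values and differ in Atto635 alone. Relative to the standards in Atto635, the log2 level of Glu2h was -1.74 in control 1, -2.04 in control 2 and -2.32 in control 3. That of Glu1h was -0.46, -0.50 and -0.94, and that of Gln1h was -1.21, -1.39 and -1.94. All 3 probes were thus lower against the standards in control 3 than in control 1, and the knockdown channel differed the same way, from -1.56 to -2.02 for Glu2h, from -0.58 to -0.79 for Glu1h and from -1.01 to -1.54 for Gln1h between arrays 1 and 3. The part of the added standards in these levels was not tested. As the spots of ratio 2 do not pair between channels, the ratio of channel medians was taken too, chosen after seeing the data, and gave a gap of 0.30, 0.57 and 0.15, and of 0.20, 0.46 and 0.048 with the dye control subtracted.

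The glutamine probe stood above the mean of the glutamate probes by 0.11, 0.13 and 0.15, although it lay below Glu2h itself in ratios 1 and 2. The average was 0.13 ± 0.024 (SD over 3 ratios, with p = 0.25 in an exact sign-flip test, the smallest possible). This difference turned sign with the dye control subtracted, to -0.14, -0.12 and -0.095, on average -0.12 ± 0.024 (SD over 3 ratios, exact p = 0.25). The dye control alone held it at 0.25, more than any of the 3 ratios. The spread of 0.024 between ratios was far below the shift from the dye control, so the direction of the glutamine against glutamate difference was set by whether the dye control was used. The gap between the glutamate probes kept its direction in every alternative run, from 0.15 to 0.42.

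The ratios the authors deposited, which correlated with the dye-subtracted scanner values without normexp at r = 0.993, 0.970 and 0.997 over 43 probes, gave like values. In the authors' deposited table Glu1h stood at 0.972, 1.05 and 1.13, Glu2h at 1.11, 1.37 and 1.22, and Gln1h at 0.939, 1.10 and 1.10 as linear ratios. In each of these columns Glu2h had the highest ratio of the 3 and Gln1h was below Glu1h in columns 1 and 3. How that table was scaled is not stated, and its column medians were 0.987, 1.09 and 1.13. In a limma fit of the 40 human probes in the authors' deposited table none of the 3 was called. The limma adjusted p-values, over those 40, were 0.691 for Glu1h, 0.108 for Glu2h and 0.713 for Gln1h.

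Aspartate and asparagine are the other acid and amide pair, and each has 1 probe. Asp1h was at -0.25, -0.11 and 0.19, with an estimate of -0.019 (SE 0.13, limma adjusted p = 0.884). Its 14 unflagged spots in ratio 2 ran from -8.16 to 0.41, with an SD of 2.72. The lowest Cy3 intensity of Asp1h there was 3, repeated from ratio 1, where its lowest Atto635 intensity was 5. In ratio 2 the lowest Atto635 intensity of Asp1h was 4356. Dye subtraction moved the estimate of Asp1h to 0.084 (SE 0.12, adjusted p = 0.880). Asn1h was at 0.0083, 0.36 and 0.29, with an estimate of 0.23 (SE 0.13, adjusted p = 0.201), which dye subtraction moved to 0.14 (SE 0.12, adjusted p = 0.660). So 0 of these 2 probes passed in either direction in the limma fits, adjusted or unadjusted, on the scale of the standards, with or without the dye control. Centred on the median human probe, Asp1h was called lower without dye subtraction (-0.23, adjusted p = 0.0183), as Glu1h was. Uncorrected, Asn1h had a higher ratio than Asp1h in 3 of 3 ratios. After subtraction Asn1h lay above Asp1h in ratios 1 and 2 and below it in ratio 3 (0.17 against 0.27).

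By Euclidean distance over the 3 dye-subtracted log2 ratios, the probes most like Glu1h were Lys2h (0.028) and Ser3h (0.029), with a median distance of 0.22 to the other 38 probes. Those most like Gln1h were Thr1h (0.067) and Thr2h (0.080), with a median of 0.21. Glu2h was closest to Val4h (0.072) and Pro1h (0.10), with a median of 0.43. With only 3 ratios this likeness is a description.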

How the data were processed

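Two-colour tRNA arrays were read as 3 ratios of eIF3e knockdown (Cy3) over control (Atto635), plus 1 dye control array. The authors deposited scanner tables with spot intensity, local background and the percent of saturated pixels per spot, per the file headers, and a table with a linear ratio per probe. The scanner is not named in those sources.

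Normexp with an offset of 50 (limma 3.58.1, R 4.3.3) was applied to the mean intensities after background subtraction. Every spot gave a log2 ratio, Cy3 over Atto635, and the median of the unflagged spots stood for a probe. The median of the 4 standards set the zero of an array. For dye-subtracted values, the dye control's log2 ratio was subtracted per probe before that centring. lmFit and eBayes were run on all 41 human probes. The knockdown RNA entered as a block, with a set correlation of 0.5 between ratios 1 and 2. P-values were adjusted over the 41 probes, or the 40 in the deposited ratios, by Benjamini-Hochberg, with a threshold of 0.05. The prior degrees of freedom were infinite, so SEs are the same for all probes, and SDs over the ratios are given beside them. After dye subtraction they were 59.3, and these SEs do not hold the dye control's own error. Gaps between probes were tested with an exact sign-flip test. The number of arrays limits the precision. The fit was run on simulated data with planted shifts larger than the standard-scaled estimates of the glutamate and glutamine probes. That run does not cover effects of their size.

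Named probes are the 3 members, the aspartate and asparagine probes, the standards, and the 2 probes nearest to each member. The members, lists and tests were chosen with earlier results of these data known. Alternatives covered dye, background, scaling, spot summary, block and each ratio left out. With ratio 1 or ratio 2 left out, the Cy3 values they share stayed in.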

Additional observations from a re-analysis of the deposited data

How the results depend on the processing

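The gap of Glu2h over Glu1h stayed above 0 in all 21 alternatives run (0.15 to 0.42), and no alternative could bring its exact p under 0.25. It ran from 0.28 to 0.42 with each ratio left out, and from 0.15 to 0.28 when dye-subtracted too. Gln1h minus the mean glutamate probe ran from 0.12 to 0.14 with each ratio left out, and from -0.13 to -0.11 with dye subtraction. It turned to -0.12 with dye subtraction, in the deposited ratios and with dye subtraction without normexp, to -0.13 with the mean of spots, -0.16 with median pixels without ratio 2 (-0.12 without ratio 2 alone) and -0.14 with channel medians, each dye-subtracted. Median pixels were read for ratios 1 and 3 alone, so each value given for them also leaves out ratio 2. Settings that combine dye subtraction with background, spot or pixel summary, channel medians and median centring without ratio 2 were chosen after seeing the data.

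Glu1h turned from -0.029 to 0.040 with dye subtraction, to 0.044 with that and no normexp, 0.035 with the mean of spots, 0.040 with median pixels without ratio 2 and 0.048 with channel medians, to 0.086 in the deposited ratios and to 0.92 without scaling (limma adjusted p = 0.000693). Median centring gave lower calls, at -0.24 and, without ratio 2, -0.23. With each ratio left out it ran from -0.12 to 0.036, and from -0.026 to 0.097 with dye subtraction (0.0058 without ratio 2). Glu2h was called at 0.31 without E.c. Lys-2, 0.32 without Yeast Phe-3, 1.25 without scaling, 0.30 with independent ratios and 0.31 with ratios 1 and 2 averaged, and ran from 0.22 to 0.40 with each ratio left out (0.15 to 0.33 with dye subtraction). Gln1h was called at 1.22 without scaling, 0.26 with independent ratios and 0.28 with ratios 1 and 2 averaged, ran from 0.21 to 0.36 with each ratio left out (-0.041 to 0.11 with dye subtraction, and -0.015 without ratio 3), and turned to -0.034 with dye subtraction and median centring and to -0.050 with dye subtraction and median pixels without ratio 2, where leaving out ratio 2 alone gave -0.041. The cause of these turns was not tested.

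Against 4 probes called higher and 1 lower, limma called 2 and 0 with dye subtraction, 5 and 0 without normexp, 7 and 0 with offset 0, 4 and 4 with median centring, 5 and 5 with that and without ratio 2, 0 and 0 with loess, 40 and 0 with no scaling, 11 and 1 when E.c. Lys-2 was left out, 10 and 1 without Yeast Phe-3, 1 and 0 with the mean of spots, 4 and 0 without dim spots, 1 and 1 with median pixels without ratio 2 (2 and 1 without ratio 2 alone), 20 and 1 with independent ratios, 28 and 1 with ratios 1 and 2 averaged, and 6 and 0 in the deposited ratios. The fit of the deposited ratios held 40 human probes. With each ratio left out the counts ran from 0 to 31 and from 0 to 2, and with dye subtraction from 0 to 2 and 0 to 0. Dye-subtracted, the counts were 0 and 0 without normexp and with the mean of spots, 1 and 0 with channel medians, and 1 and 0 with median pixels without ratio 2 (2 and 0 without ratio 2 alone). As deposited, each ratio sets knockdown against control, though the channels of ratio 2 are not shown to come from the same scan. Apart from the block for the shared knockdown RNA, no pairing entered the limma fits.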

Other observations

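Mean ratios per block of 2 spots were lowest in block 11 and highest in block 8 for Glu1h both in ratio 1 (-0.31 and -0.14) and on the dye control (-0.18 and -0.013). Glu2h was also lowest in block 11 on both arrays, at 0.049 and -0.051. Other arrays differed: Glu1h was lowest in block 5 in ratio 3 and in block 10 in ratio 2, and Gln1h was lowest in block 6 in ratio 1. The SD over spots of Glu1h and of Glu2h was 0.054 and 0.040 in ratio 1, 0.37 and 0.56 in ratio 2, and 0.056 and 0.071 in ratio 3. The SD of the gap between them at matched positions was 0.028, 0.57 and 0.041.

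A single unflagged Glu1h spot on the dye control, in block 7 at column 6 and row 7, had a median-pixel intensity of 50 in each channel, while the other 15 spots ran from 6485 to 12481 in Cy3. Its mean-pixel intensities were 4188 and 2274, and its log2 ratio of -0.051 lay within the range of the others, from -0.20 to -0.0031. Without it the dye control value of Glu1h was -0.11, as with it. Mean-pixel intensity was 78.7% of the median-pixel intensity in Cy3 at the median Glu1h spot of ratio 1, 87.0% for Glu2h and 94.3% for Gln1h. In ratio 3 these shares were 92.6%, 96.8% and 99.2%.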
